A study of Mus musculus with 6 samples.

Results

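Flrt3, its paralogue Flrt2, the gene Macrod2 whose span holds Flrt3, and the latrophilin genes Adgrl1, Adgrl2 and Adgrl3 were followed in RNA-seq of alveolar macrophages, phagocytes that reside in the air spaces of the lung. These 6 genes were taken by symbol from the 17142 genes of the deposited expression table. Flrt3 was selected on its measured TPM, because it had risen in the knockout, while the others were named for their relation to it by sequence, position or binding. Their knockout and wild-type levels are therefore given as a description, without p-values of their own, and whether the fit over all genes called them is stated in that sense only. The study compared primary alveolar macrophages of allergen-exposed wild-type mice with those of allergen-exposed Trim33 knockout mice after a single challenge, with 3 libraries in each group. Strain, age, sex, the allergen, the deleted exons and any Cre driver are not stated in the labels, nor is whether libraries came from separate animals, so the spread between libraries may be technical.

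FLRT proteins are cell-surface proteins whose extracellular part carries leucine-rich repeats and a fibronectin type III domain. They bind latrophilins, which are adhesion G protein-coupled receptors, and UNC5 receptors, which also bind netrins, and they interact with fibroblast growth factor receptors inside the same cell. Teneurins are a further class of latrophilin ligand. These contacts are best known from synapses, axon guidance, vascular growth and early embryos, where they act in adhesion and repulsion between cells.

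In wild-type cells the receptor Adgrl2 was the most abundant of the 6 genes and Flrt3 was low, and in the knockout Flrt3 became the most abundant. Flrt3 rose from 3.32 ± 0.502 to 239.9 ± 63.8 TPM (SD, n = 3 each). The mean of Adgrl3 went from 6.10 ± 2.26 TPM to 2.76 ± 0.347 TPM, and that of Adgrl2 from 30.0 ± 4.91 to 23.7 ± 1.05 TPM. Macrod2 averaged 1.99 ± 0.513 and 3.48 ± 0.135 TPM, and Adgrl1 and Flrt2 stayed under 1 TPM in all 6 libraries. TPM is a share of the transcripts in a library after division by gene length, so levels of different genes can be compared, but the number of reads behind a value is unknown. In bulk RNA, fewer cells that express a gene and less RNA of that gene per cell cannot be told apart.

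The start of Flrt3 is shown first, since Flrt3 and the gene around it were both higher in the knockout. RefSeq gives Flrt3 (Entrez gene 71436) as chr2:140658198-140671476 on GRCm38.p6, on the minus strand. Macrod2 (Entrez gene 72899) is on the plus strand at chr2:140395303-142392966. The 300 bases below surround the annotated start, 5′ to 3′ on each gene's own strand, at chr2:140671427-140671726 (minus strand) for Flrt3 and chr2:140395180-140395479 (plus strand) for the first of the overlapping Macrod2 entries. Capitals mark the matches to the letters searched for.
Flrt3: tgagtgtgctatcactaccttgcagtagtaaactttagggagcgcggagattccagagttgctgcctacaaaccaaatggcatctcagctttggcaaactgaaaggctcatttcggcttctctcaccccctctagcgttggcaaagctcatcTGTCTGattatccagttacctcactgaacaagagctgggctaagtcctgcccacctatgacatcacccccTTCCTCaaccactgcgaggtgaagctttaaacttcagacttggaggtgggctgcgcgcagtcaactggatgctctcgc
Macrod2: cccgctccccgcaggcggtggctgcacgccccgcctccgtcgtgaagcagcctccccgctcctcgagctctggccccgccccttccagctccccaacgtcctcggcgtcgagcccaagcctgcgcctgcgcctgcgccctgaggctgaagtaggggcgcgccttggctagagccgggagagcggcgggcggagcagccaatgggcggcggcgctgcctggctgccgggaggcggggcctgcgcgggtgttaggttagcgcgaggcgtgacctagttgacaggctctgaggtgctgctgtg

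The letters searched on both strands were TATAAA (the TATA box), CAGACA (which holds the CAGA box bound by SMAD proteins), GTCTAGAC (a SMAD palindrome), GAGGAA (the core of PU.1 sites), CACGTG (an E-box), the alternating repeat CGCGCG, and the core of interferon-response elements (GAAA, any pair of bases, then GAAA again). The Flrt3 window held CAGACA on the opposite strand, beginning 98 bases before the start, and GAGGAA on the opposite strand, beginning 28 bases before it. Each of these is common, since CAGACA occurred in 21.0% and GAGGAA in 28.3% of 32851 RefSeq windows of the same length, and none of the other letters was present. Neither Macrod2 window held any of them. The 2 genes also differ in base composition, because the Flrt3 window had 51.3% G and C with 8 CG dinucleotides, near the median of 7 over all windows, whereas the Macrod2 window had 73.7% G and C with 33 CG dinucleotides, more than 91.4% of windows. A match or its absence describes these letters only.

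Flrt3, the adhesion ligand, had 3.87, 2.89 and 3.19 TPM in wild-type replicates 1, 2 and 3. In knockout replicates 1, 2 and 3 it had 215.7, 191.8 and 312.3 TPM. The groups were far apart, with the lowest knockout library 49.6 times the highest wild-type library. The ratio of means was 72.4, and the log2 difference on the log2(TPM + 1) scale was 5.78 ± 0.17 (SE). Its 95% interval of 5.39 to 6.17 was not adjusted for the number of genes or for the choice of Flrt3 on these values. The Flrt3 difference was the largest positive one among the 11111 genes that reached 1 TPM in 3 or more libraries and were tested. Next came the sialyltransferase gene St6galnac5 at 3.67. With a pseudocount of 0.1 in place of 1, which gives more weight to genes near 0, Flrt3 had rank 3.

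The change moved Flrt3 through most of the expressed range. Its mean exceeded that of 12.3% of tested genes in wild type and 94.5% in the knockout, and its rank by level went from 9743 to 607. Siglecf, the lectin used to identify alveolar macrophages, had 89.2 to 150.2 times the Flrt3 TPM in the wild-type libraries and 0.903 to 1.42 times in the knockout libraries, and Siglecf was itself among the genes called lower. The deposited FPKM values gave means of 1.72 and 129.9 for Flrt3, a ratio of 75.7.

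Flrt2, the paralogue with the same domain layout, did not share this level. It had 0.17, 0.03 and 0.04 TPM in wild-type replicates 1, 2 and 3 and 0.56, 0.22 and 0.14 TPM in knockout replicates 1, 2 and 3. The groups overlapped, since knockout replicate 3 lay under wild-type replicate 1, and the gene was under the minimum for testing. Flrt1, the remaining family member, was at 0.05 TPM or less in every library. Flrt3 was thus the FLRT gene above 1 TPM in these libraries, in both genotypes.

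**Figure D1:**
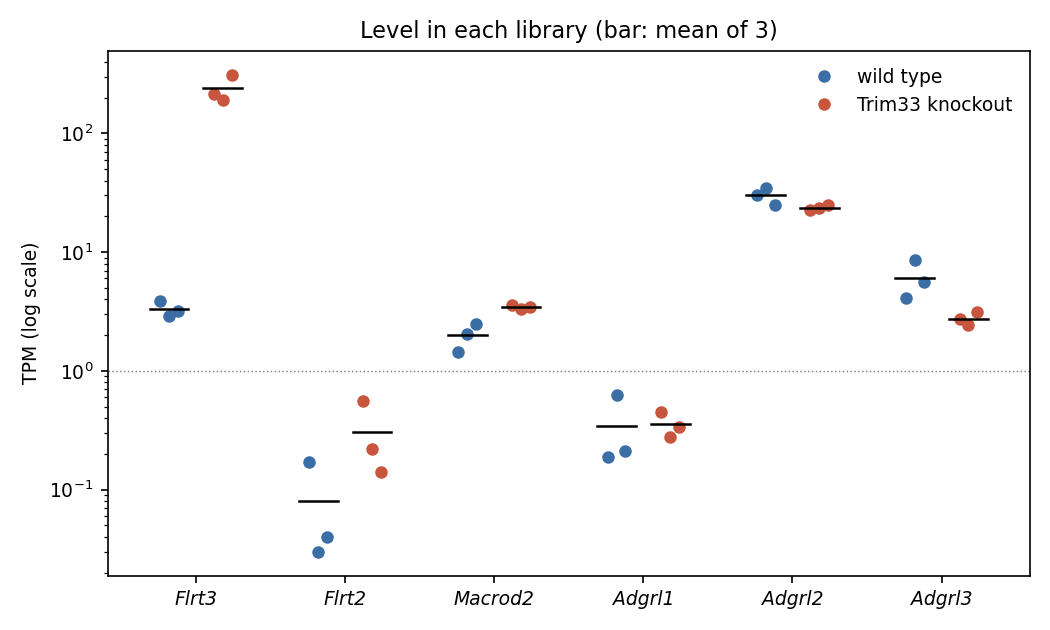
TPM of the 6 genes in each library on a log axis, with wild-type libraries in blue, Trim33 knockout libraries in red, a black bar at each mean of 3 and a dotted line at 1 TPM. Flrt3 goes from 2.89 to 3.87 TPM in wild type to 191.8 to 312.3 TPM in the knockout, while Flrt2 and Adgrl1 lie under the dotted line in all libraries.

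Macrod2, an enzyme that removes ADP-ribose from proteins through its macrodomain, hosts Flrt3 in an intron. In the Macrod2 transcript with the longest coding sequence in GENCODE M21 (GRCm38; of equal lengths, the longer transcript), which has 19 exons, Flrt3 lies in intron 3, of 372365 bases, and starts 276173 bases beyond the Macrod2 start. Over all annotated transcripts, the nearest Macrod2 exons on either side leave a gap of 60457 bases around Flrt3, and exons of the 2 genes share 0 bases. The Flrt3 coding sequence is 1947 bases in 1 exon, within 4865 exonic bases. Reads within exons can therefore be assigned to either gene by position, but whether the authors counted by strand is not stated, and unspliced Macrod2 RNA would cross the Flrt3 exons.

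Macrod2 had 1.45, 2.05 and 2.47 TPM in wild-type replicates 1, 2 and 3 and 3.62, 3.35 and 3.47 TPM in knockout replicates 1, 2 and 3. All knockout libraries were above all wild-type libraries, and the nearest values of the groups differed 1.36-fold. The ratio of means was 1.75 and the log2 difference 0.60 ± 0.17 (SE), which was small beside that of Flrt3. Macrod2 varied little within the knockout (3.35 to 3.62 TPM) where Flrt3 spread from 191.8 to 312.3 TPM. Both genes were lowest of their group in knockout replicate 2. In the library with the highest Flrt3 value, knockout replicate 3, Macrod2 was the middle value of its group. Whether the 2 genes vary together was not tested. The ratio of Flrt3 to Macrod2 TPM was 1.29 to 2.67 in wild type and 57.3 to 90.0 in the knockout.

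Of the tested neighbours of Flrt3 other than Macrod2, 0 of 4 were called, beside 14.6% of all tested genes. So few genes cannot be told from that share. Of the genes of the table within 2 Mb of Flrt3, apart from Macrod2, the protease gene Tasp1 (2.72 ± 0.894 and 2.36 ± 0.144 TPM in wild type and knockout), the nucleolar gene Esf1 (12.3 ± 1.08 and 10.3 ± 0.731 TPM), the complex I assembly factor gene Ndufaf5 (17.4 ± 2.17 and 19.7 ± 3.55 TPM) and the kinesin gene Kif16b (16.7 ± 3.11 and 12.9 ± 1.36 TPM) did not pass limma, with adjusted p of 0.654, 0.183, 0.437 and 0.112. Ism1, a secreted protein gene, was under 1 TPM in all libraries. All knockout libraries of Kif16b lay below its wild-type libraries, as for 34.6% of all tested genes. The groups of the other 3 tested neighbours overlapped.

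**Figure D2:**
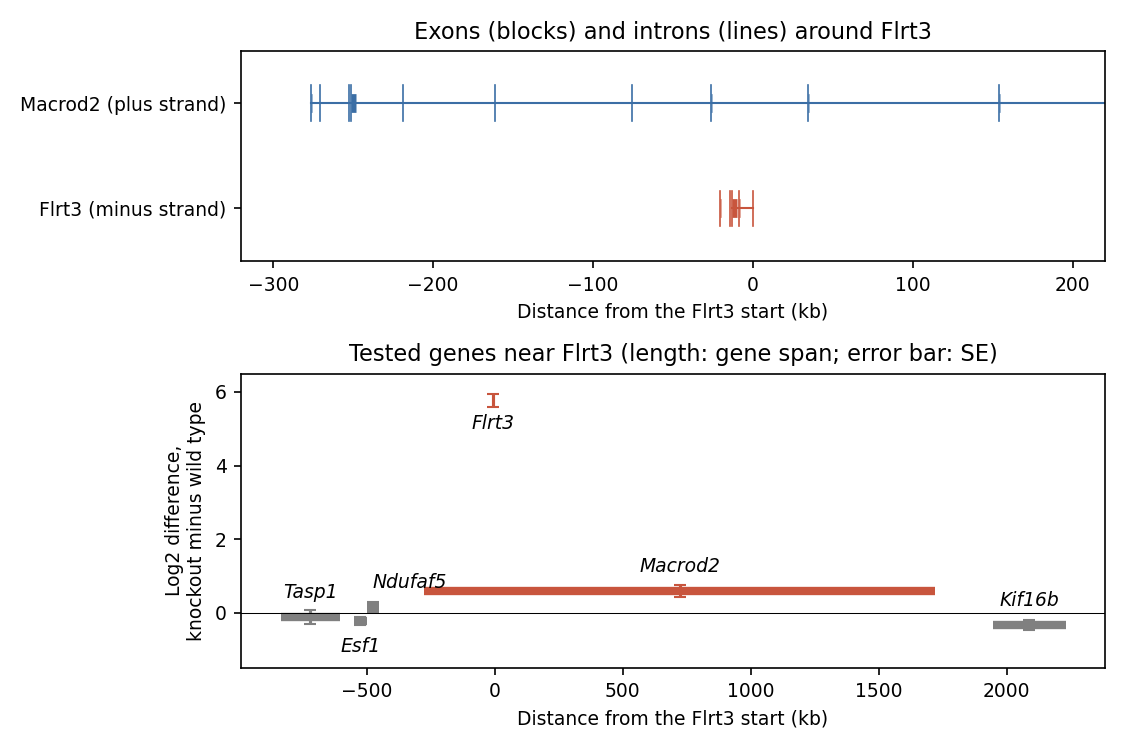
The upper panel draws merged GENCODE exons of Macrod2 (blue) and Flrt3 (red) by distance in kb from the Flrt3 start, and the lower panel the log2 difference (knockout minus wild type, log2(TPM + 1) scale, error bar SE) of tested genes within 2 Mb, each drawn over its span. Flrt3 lies between Macrod2 exons and stands at 5.78, Macrod2 at 0.60, and the other 4 genes (grey) between -0.34 and 0.16.

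Among the receptors, Adgrl2 had the highest TPM of the latrophilins in both genotypes. It had 30.19, 34.84 and 25.03 TPM in wild-type replicates 1, 2 and 3 and 22.60, 23.74 and 24.70 TPM in knockout replicates 1, 2 and 3. The knockout libraries were all lower, by a narrow margin between 25.03 and 24.70 TPM. The log2 difference was -0.32 ± 0.12 (SE), with an unadjusted 95% interval of -0.59 to -0.05. After adjustment the gene was not called in the fit over all genes. All tested genes had a median difference of -0.15, so Adgrl2 was 0.17 below that median. Its highest value was in wild-type replicate 2. Without that library the Adgrl2 difference was -0.21, which was 0.11 below the median of that run. Adgrl2 supplied 79.1% to 87.5% of the summed latrophilin TPM in wild type and 87.7% to 89.8% in the knockout.

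Adgrl3, the second latrophilin, had 4.14, 8.57 and 5.58 TPM in wild-type replicates 1, 2 and 3. Its knockout replicates 1, 2 and 3 had 2.72, 2.43 and 3.12 TPM, all below the lowest wild-type library. The knockout mean was 45.2% of the wild-type mean, the log2 difference was -0.87 ± 0.21 (SE), and it lay 0.73 below the median of all genes. Its share of the summed latrophilin TPM was 16.5 ± 3.98% in wild type and 10.3 ± 0.977% in the knockout (SD, n = 3 each), with no overlap between groups. The high wild-type value came from replicate 2, which also had the most endothelial marker transcript, as given with the cell markers. TPM ran high there for tested genes in general, as the factor divided out by median-ratio scaling was 1.147, and 0.930 to 1.03 in the others. After that scaling the Adgrl3 log2 difference was -0.745. Without wild-type replicate 2 it was -0.63 and the gene was not called, as also without wild-type replicate 3 or knockout replicate 1 or 2.

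Adgrl1 was barely detected, with 0.19, 0.63 and 0.21 TPM in wild-type replicates and 0.45, 0.28 and 0.34 TPM in the knockout. The groups overlapped, and the highest value was again in wild-type replicate 2. The 3 latrophilins together summed to 36.5 ± 6.82 TPM in wild type and 26.8 ± 1.23 TPM in the knockout.

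In each wild-type library the order of levels was Adgrl2, Adgrl3, Flrt3, Macrod2, Adgrl1 and Flrt2, and the ranges of neighbours in this order did not overlap. The knockout libraries instead followed the order Flrt3, Adgrl2, Macrod2 and Adgrl3, again without overlap, while Adgrl1 and Flrt2 could not be ordered, since their ranges overlapped. The ratio of ligand to main receptor turned over with this, as Adgrl2 TPM was 7.80 to 12.1 times that of Flrt3 in wild type and Flrt3 TPM was 8.08 to 12.6 times that of Adgrl2 in the knockout. These are transcript levels, and protein was not measured in the files used here.

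Of the 6 genes, 4 reached the minimum for testing, in both groups, and the fit over all genes called Flrt3 and Macrod2 higher and Adgrl3 lower at an adjusted p under 0.05. Over all 11111 tested genes, 4.47% were called higher and 10.2% lower, 14.6% in all, and because the genes were chosen with this contrast known, nothing is read from their count. The calls of all genes rested on scaling, being 497 higher and 1129 lower on the TPM values. With median-ratio scaling they were 665 and 383, and the median of all genes shifted from -0.15 to -0.0025. The higher calls also ran from 124 without wild-type replicate 3 to 800 without wild-type replicate 1. The knockout libraries lay wholly above the wild-type libraries for 9.84% of tested genes and wholly below for 34.6%, or 44.4% in either direction, against which the separations of Macrod2 (above) and of Adgrl2 and Adgrl3 (below) are to be read. The Macrod2 call did not hold when any 1 of the 6 libraries was left out, although its log2 difference then stayed between 0.46 and 0.71.

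**Figure D3:**
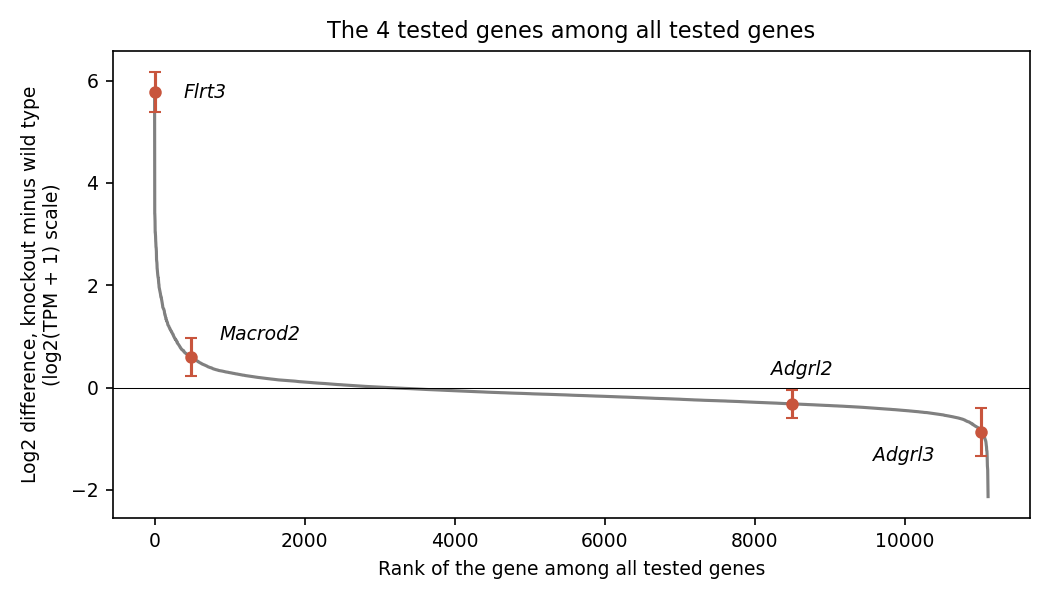
Log2 difference (knockout minus wild type, log2(TPM + 1) scale) of the 11111 tested genes against their rank (grey line). Flrt3, Macrod2, Adgrl2 and Adgrl3 are red points with unadjusted 95% intervals. Flrt3 is the first gene at 5.78, Macrod2 is at rank 480, Adgrl2 lies on the flat part of the curve at rank 8494 and Adgrl3 near its lower end at rank 11023.

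Most other genes listed with FLRT proteins were low, with 10 of 14 under 1 TPM in all libraries. The list includes the paralogue Flrt1, netrin genes and a further netrin receptor gene, so it is wider than proteins that bind FLRT proteins. Of these 14 genes, 3 were tested (Unc5a, Rnd1 and Ntn4), 1 was lower and 0 were higher. Their median log2 difference was -0.32 beside -0.15 for all tested genes, of which 14.6% were called. Unc5a, a netrin receptor of the class that binds FLRT proteins, had 2.10, 2.82 and 2.13 TPM in wild-type replicates 1, 2 and 3 and 1.04, 1.23 and 1.41 TPM in knockout replicates 1, 2 and 3. It fell without overlap between groups (log2 difference -0.59 ± 0.17 SE, limma adjusted p 0.0429). The call was lost after median-ratio scaling, without the filter, and without any 1 library other than wild-type replicate 1, and under a minimum of 5 TPM the gene was not tested. The small GTPase gene Rnd1, whose product binds FLRT proteins inside the cell in frog embryos, had 2.13 and 1.49 TPM on average in wild type and knockout, and the netrin gene Ntn4 1.74 and 1.25 TPM, and neither passed. Unc5b, Unc5c and Unc5d were at 0.24 TPM or less in every library. Fgfr1, which had the highest mean of the 3 growth factor receptor genes listed, had 0.66 to 0.81 TPM in wild type and 0.58 to 0.79 TPM in the knockout.

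Teneurins, the other ligand class, were likewise little transcribed. The teneurin genes Tenm1, Tenm2, Tenm3 and Tenm4 were at 0.05 TPM or less in all libraries. Of 11 genes of the table listed with the latrophilins, 1 was tested, with a log2 difference of 0.21, and 0 were called. The tested gene was Adgrl4, a receptor related to latrophilins and typical of endothelium, and not itself a partner of them. Adgrl4 had 0.84, 1.65 and 0.38 TPM in wild-type replicates and 1.31, 1.19 and 1.05 TPM in the knockout. Flrt3 was therefore the ligand gene with the highest TPM among the FLRT and teneurin genes in every library.

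**Figure D4:**
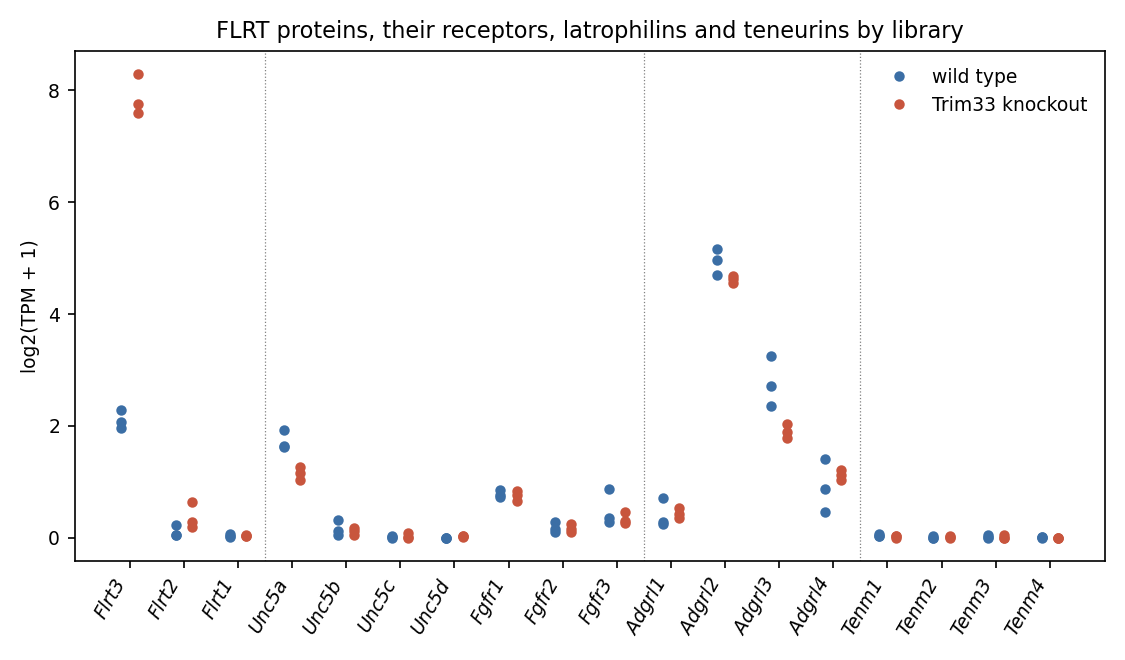
log2(TPM + 1) of FLRT genes, UNC5 and fibroblast growth factor receptor genes, latrophilins with Adgrl4, and teneurins (separated by dotted lines) in each wild-type (blue) and Trim33 knockout (red) library. The knockout points of Flrt3 stand above all others, Adgrl2 and Adgrl3 are the receptors above the rest in both groups, and the teneurins lie at the baseline.

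Wider families were counted in the same way, against 14.6% of all tested genes called in either direction, and their numbers are too small to be told from that share. Of 23 further adhesion G protein-coupled receptors in the table, 6 were tested and none passed (0 called), including Adgre1, the F4/80 antigen of macrophages, at 169 ± 10.5 TPM in wild type and 187 ± 11.4 TPM in the knockout. Adgrg1 averaged 23.3 and 20.4 TPM and Adgre5, the CD97 antigen, 15.2 and 19.9 TPM. The family's median log2 difference was 0.0014. Of 8 tested G protein alpha subunit genes, through which such receptors signal, 1 was lower and 0 were higher, with a median of -0.22. This was Gnaq, which fell from 39.4 ± 3.81 to 30.4 ± 1.19 TPM (limma adjusted p 0.0394). Gna12 and Gna13 did not pass, with means of 56.6 and 54.7 TPM in the wild-type cells and 46.7 and 49.8 TPM after loss of Trim33. Among 6 tested genes of other leucine-rich-repeat adhesion proteins, 0 passed and the median was -0.20. Their most abundant members by mean TPM were Amigo2, Lrig3 and Lrfn4, with 8.20, 4.63 and 3.56 TPM in wild-type cells and 5.51, 3.57 and 4.12 TPM in the knockout.

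Relatives of Macrod2 were tested as a further list. Of 10 tested genes for macrodomain proteins and ADP-ribose hydrolases, 2 were higher and 0 lower, beside 4.47% and 10.2% of all tested genes. Their median was -0.08, and nothing is read from so small a count. The rises were in Parp14 (log2 difference 0.79 ± 0.14 SE, limma adjusted p 0.0125) and Parp9 (0.69 ± 0.14 SE, adjusted p 0.0162), ADP-ribosyltransferase family genes that respond to interferon. Macrod1, the closest relative of Macrod2, had 9.95, 15.95 and 16.89 TPM in wild-type replicates and 7.98, 9.21 and 10.94 TPM in the knockout, so its groups overlapped, and Oard1, a further macrodomain hydrolase gene, had 23.1 ± 3.64 and 17.7 ± 0.52 TPM.

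The genes whose levels followed Flrt3 most closely were named by Pearson's r over the 6 libraries on log2(TPM + 1). They were Atp1b3 (r = 0.9986), Olfr1033 (0.9982), Abcc8 (0.9982), Cadm2 (0.9980) and Pde11a (0.9979), and 24 genes in all besides Flrt3 reached 0.99. Such values are set mainly by the separation of the groups, which all 5 genes share. Abcc8, Cadm2 and Pde11a also reached the minimum for testing through the knockout alone, which favours such a separation. Knockout replicate 3 was the highest library for all 5 genes, as for Flrt3. Cadm2, a neural cell adhesion molecule gene, was near 0 in the wild-type libraries (0.02 TPM in replicate 1, 0 in the others). It reached 3.51, 2.82 and 4.26 TPM in knockout replicates 1, 2 and 3. Pde11a, a cyclic nucleotide phosphodiesterase gene, is listed at 0 throughout wild type, and its knockout replicates had 4.26, 4.70 and 5.01 TPM. Abcc8, the sulfonylurea receptor gene, rose from 0.15 ± 0.03 to 4.60 ± 0.497 TPM.

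Markers of the labelled genotype and cell type were examined in every library. Trim33 itself ranged from 6.83 to 10.97 TPM in wild type and from 2.63 to 3.98 TPM in the knockout. All 12 alveolar macrophage markers listed were detected above the minimum, with summed levels of 95550 to 97322 TPM in wild type and 77787 to 97763 TPM in the knockout. Most of the sum came from Lyz2, with means of 68709 and 63615 TPM, and Chil3, with 18104 and 12585 TPM. Of the 12 markers, 1 was higher (Cd68) and 4 were lower (Siglecf, Chil3, Krt79 and Mertk), beside 4.47% and 10.2% of all tested genes. Markers of epithelium (12 genes) summed to 1172 to 1237 TPM and 921 to 1257 TPM, and none passed (0 of 9 tested). The sum was mostly Krt19, with means of 956 and 855 TPM, followed by Scgb1a1 with 107.8 and 101.2 TPM and Sftpc with 67.75 and 44.65 TPM. The keratin genes Krt8 (1.52 and 1.98 TPM) and Krt18 (0.46 and 0.803 TPM) were low. The sum is therefore largely the level of 1 gene, and the cells behind it were not tested. Endothelial markers (7 genes) summed to 78.1 TPM in wild-type replicate 2 and to 37.7 to 45.3 TPM in the other 5 libraries. Vwf, the largest part of this sum, averaged 31.1 and 19.4 TPM in wild type and knockout, whereas 6 of the 7 markers had a positive log2 difference. Pecam1 had 4.13, 8.79 and 2.44 TPM in wild-type replicates 1, 2 and 3 and 6.06 to 6.78 TPM in the knockout. Fibroblast markers (8 genes) summed to 45.7 TPM in wild-type replicate 2 and 19.5 to 38.8 TPM in the others. The part of these cells in the Adgrl3 difference was not tested. Lymphocyte and granulocyte markers (10 genes) summed to 101.7 to 133.6 TPM in wild type and 136.1 to 142.4 TPM in the knockout, without overlap. Most of this was S100a8, a neutrophil and monocyte gene, at 108 ± 15.2 and 128 ± 2.46 TPM, followed by S100a9 at 5.02 ± 2.43 and 8.52 ± 1.10 TPM, and 0 of 3 tested markers passed. The neutrophil marker Ly6g and the eosinophil marker Prg2 were at 0.20 TPM or less in every library, and the part of such cells in the Flrt3 difference was not tested. The 5 neuronal markers summed to 0.41 to 0.83 TPM in wild type and 2.27 to 2.68 TPM in the knockout. Of these, Tubb3 had 0.20 ± 0.0755 and 1.66 ± 0.35 TPM. It reached the minimum for testing through the knockout alone, which favours a rise, so its call is not read as a result. Stmn2, the other marker that contributed to the sum, had 0.39, 0.69 and 0.05 TPM in wild-type replicates and 0.84, 0.96 and 0.62 TPM in knockout replicates, with overlap. Rbfox3, Snap25 and Elavl3 were at 0.06 TPM or less in every library, and the part of neuronal RNA in the Flrt3 difference was not tested.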

How the data were processed

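Bulk RNA-seq of total RNA from 6 libraries (3 wild type, 3 Trim33 knockout) was used; groups came from the genotype labels. Bowtie2 2.2.5, HISAT2 2.0.4 and the build GRCm38.p6 are listed in the submitters' processing notes, which leave the quantifier and strand setting unnamed. The authors deposited 1 table of 17142 genes with TPM values, which sum to 1000000 in each library, and FPKM values per the file headers. The FPKM values gave no shared step of whole reads and the TPM values were not searched for one, so depth is unknown and a value near 0 has no floor. Genes reaching 1 TPM in 3 or more libraries (11111) were fitted on log2(TPM + 1) with limma 3.58.1 (R 4.3.3; trend and robust moderation, no covariates, Benjamini-Hochberg adjustment over all tested genes, calls at adjusted p under 0.05), a procedure tested on simulated data. A fold on this scale understates changes of low genes. SD is over 3 libraries.

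Positions and promoter windows came from RefSeq (GRCm38.p6), with 17020 table genes matched by Entrez identifier, and exons from GENCODE M21; all 6 genes had a promoter entry. Genes named were the 6 genes, Trim33, and up to 4 called genes per list or otherwise the 3 with the highest mean TPM. All neighbours within 2 Mb, the 5 most alike genes and the gene next to Flrt3 by log2 difference were also named. Unc5b, Unc5c, Unc5d, Flrt1, Rnd1, Ntn4, Gna12, Gna13, Macrod1 and Oard1 were added after their values were seen. So were Rbfox3, Snap25, Elavl3, Stmn2, Mertk, Lyz2, Ly6g, Prg2, Fgfr1, Krt8, Krt18, the teneurin genes and the genes of the nested pairs. Some genes that the rule gives are covered by their list's counts or sums alone. Members and lists were chosen with earlier results of these data known. Alternatives were a replicate block, leaving out each library, quantile normalization or median-ratio scaling, plain moderation, the FPKM values, other pseudocounts (0.1, 5) and another filter (none, or 5 TPM).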

Additional observations from a re-analysis of the deposited data

How the results depend on the processing

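Depth is unknown, and groups of 3 limit every call. The log2 difference of Flrt3 was 5.78, and was 6.11 with a pseudocount of 0.1, 4.85 with a pseudocount of 5 and 5.57 to 5.92 without 1 library; that of Flrt2 was 0.26, and was 1.12 and 0.062 with those pseudocounts. Macrod2 (0.60) and Adgrl3 (-0.87) had the same values without the filter but were not called. With a pseudocount of 5 they were 0.28 and -0.50, and with 0.1 they were 0.81 and -1.06, called in both cases. Without 1 library, Macrod2 ranged from 0.46 to 0.71 and was not called, and Adgrl3 ranged from -1.08 to -0.63. Adgrl2 was not called in any alternative run, and kept a negative difference in all of them. The 1 call among genes listed with FLRT proteins and latrophilins became 0 without the filter, with a minimum of 5 TPM and after median-ratio scaling. Without 1 library it was 0 to 1. Genes called higher numbered 497, and 124 to 800 without 1 library. Genes called lower numbered 1129, and 326 without the filter, 383 after median-ratio scaling, 587 after quantile normalization, 672 with plain moderation and 84 to 2577 without 1 library. Higher calls were 30.6% of calls, 63.5% after median-ratio scaling, 48.8% after quantile normalization, 40.9% on FPKM values, 51.6% without the filter and 41.1% with plain moderation. Whether replicate numbers pair the libraries could not be settled, since deviations from a mean of 3 libraries depend on each other. Those of same-numbered libraries correlated at 0.323, -0.0325 and 0.0854, and not every library correlated best with its own number. With the replicate block, 753 genes were higher and 2147 lower, and the calls of Macrod2 and Adgrl3 were as without it. A minimum of 5 TPM gave no value for Macrod2, Adgrl3, Flrt2 or Adgrl1, and quantile normalization, plain moderation and the block none for Flrt2 or Adgrl1. The causes of these shifts were not tested.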

Other observations

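Genes lying wholly within the span of another gene were counted over the table. Both genes were tested in 123 such nested pairs, and the host was called higher in 8 and lower in 11 of them. The nested gene was called higher in 4 pairs. Their hosts were higher for Flrt3 in Macrod2, for the interferon-induced gene Ifit3b in Ifit1bl1 (6.39 to 32.6 TPM for the host) and for Trim30b in Gm38525 (3.42 to 9.22 TPM). The host was lower for Timp1, a metalloproteinase inhibitor gene, in Syn1, with Timp1 going from 2.69 to 9.36 TPM and Syn1 from 15.1 to 7.99 TPM. In the 115 pairs whose nested gene was not called, the host was higher in 5 and lower in 9. The pairs include Flrt3 and Macrod2 themselves and were not tested as a set, and nothing is read from the 4 pairs.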
